A study of Homo sapiens with 4 samples.

Results

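The core erythroid transcription factors are 10 genes taken by symbol from the deposited signal table, out of 34692 gene entries. They are GATA1, GATA2 and the GATA cofactor ZFPM1, the TAL1 complex genes TAL1, LYL1, LMO2 and LDB1, and the partner factors KLF1, NFE2 and GFI1B. All 10 were found, each as an entry read as a single probe. The cells were K562, an established human line from a chronic myelogenous leukaemia that makes embryonic and fetal globins. In one group, stable transductants over-expressed the zinc finger gene ZNF16, and in the other stable control transductants were used, with 2 arrays of total RNA in each. The vector, its promoter and whether each transductant was a clone or a pool were not analysed here, since no label names them. Nothing in the labels shows that the cultures of a group were separate, so the p-values cover only the spread between these arrays, which may be technical.

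GATA1 and GATA2 are zinc finger proteins that bind the DNA sequence GATA, GATA2 mainly in stem and progenitor cells and GATA1 in maturing red cells. GATA1 works with the cofactor FOG1, the product of ZFPM1, and with a complex in which TAL1 binds an E-box of DNA while LMO2 and LDB1 bridge the proteins. KLF1, NFE2 and GFI1B act on many of the same red cell genes, the first pair mainly as activators and GFI1B as a repressor.

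The deposited signals averaged 956.1 and 991.8 in ZNF16 cells, against 998.2 and 971.9 in control cells, and 9913 to 10762 entries were detected (deposited detection p under 0.05). The ZNF16 entry combines several probes and was detected on 0 of 4 arrays, with detection p-values of 0.404 and 0.343 in ZNF16 cells, against 0.519 and 0.693 in control cells. It therefore does not check the group labels. Control replicate 2 stood apart. It was the highest or the lowest array in 67.5% of the 10868 entries tested, against 52.3% and 35.5% for ZNF16 replicates 1 and 2 and 44.4% for control replicate 1. The SD of log2 differences over tested entries was 0.521 between the controls and 0.342 between the ZNF16 arrays. Where leaving it out turned the sign of a difference, the value without it is given too, as are some values that changed only in size.

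The promoters are shown first, because GATA factors are known to act on the genes of other members and on their own. Of the 10 genes, 8 had an entry in the RefSeq promoter table (GRCh38.p14), and 3 of these had 2 start sites each, which made 11 promoters; LMO2 and NFE2 had none. The 250 bases before each start were searched on both strands for the usual letters of a GATA site, which are GATAA or GATAG with an adenine or a thymine before them. Overlapping matches were counted separately. A match was present in 4 of the 11 promoters, while 22.3% of 35114 promoters of the same length in the table held one. The promoters with a match are printed from 5′ to 3′ on the gene's own strand, with the match in capitals. KLF1 lies at chr19:12887202-12887451 (minus strand), LYL1 at chr19:13102859-13103108 (minus strand), TAL1 (first start) at chr1:47232336-47232585 (minus strand) and GFI1B (second start) at chr9:132978444-132978693 (plus strand).
KLF1: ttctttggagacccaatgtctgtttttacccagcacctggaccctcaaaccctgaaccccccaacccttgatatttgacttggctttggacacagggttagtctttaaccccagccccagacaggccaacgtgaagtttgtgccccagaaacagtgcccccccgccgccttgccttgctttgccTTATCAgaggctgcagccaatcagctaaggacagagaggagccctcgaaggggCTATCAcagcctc
LYL1: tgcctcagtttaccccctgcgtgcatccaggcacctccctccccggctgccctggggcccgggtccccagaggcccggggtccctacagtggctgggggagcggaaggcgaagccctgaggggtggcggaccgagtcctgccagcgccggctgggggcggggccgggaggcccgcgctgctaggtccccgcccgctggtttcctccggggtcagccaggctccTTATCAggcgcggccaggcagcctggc
TAL1: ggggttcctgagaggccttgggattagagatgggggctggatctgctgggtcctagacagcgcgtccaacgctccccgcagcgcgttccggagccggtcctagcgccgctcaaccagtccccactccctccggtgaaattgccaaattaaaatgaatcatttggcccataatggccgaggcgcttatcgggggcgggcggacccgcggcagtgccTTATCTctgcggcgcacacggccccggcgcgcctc
GFI1B: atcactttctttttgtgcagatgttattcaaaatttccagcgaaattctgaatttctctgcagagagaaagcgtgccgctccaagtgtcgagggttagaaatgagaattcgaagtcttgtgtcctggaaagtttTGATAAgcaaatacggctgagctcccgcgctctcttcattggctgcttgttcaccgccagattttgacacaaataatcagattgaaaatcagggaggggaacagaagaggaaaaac
KLF1 had 2 matches, which began 66 and 13 bases before the start. The match began 27 bases before the start in LYL1, 35 in TAL1 and 116 in GFI1B. The 4 members without a match in their windows were GATA1, GATA2, ZFPM1 and LDB1. The letters CCNCNCCC, an approximation of the site of KLF1 and its relatives, were found in 8 of the 11 promoters, against 53.4% of all, with overlapping matches counted separately. ZFPM1, whose window has 83.2% G and C, held 9 of them and GATA1 held 4. TGCTGAG, part of an NFE2 site, was found in 1 promoter, that of LDB1, against 5.14% of all, and the E-box letters CAGCTG or CAGATG in 3, against 24.3%. A match is a description of letters, and binding was not measured.

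None of the factors differed between ZNF16 and control cells in limma's test. After background correction and quantile normalization, 9 of the 10 passed the filter on dim entries (detected on at least 2 of 4 arrays) and were tested. Of the 9, 0 had an adjusted p under 0.05 in either direction, and 0 had an unadjusted p under 0.05. The background was 0% of entries higher, 0% lower and 7.69% with an unadjusted p under 0.05. Adjusted p-values of the 9 ran from 0.693 to 0.997 (limma, Benjamini-Hochberg over 10868 entries). Log2 differences (ZNF16 minus control) were above 0 in 5 and below 0 in 4, with a median of 0.12, while the median over all tested entries was 0.01 and 51.2% of them were above 0. Under median scaling in place of quantile normalization the median of all tested entries was −0.19 and 28.3% were above 0. The median of the 9 was then −0.18 and 3 were above 0, and 5 lay above the median of all entries in either scaling. Fewer cells of a kind and less RNA per cell cannot be told apart in such bulk samples.

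**Figure D1:**
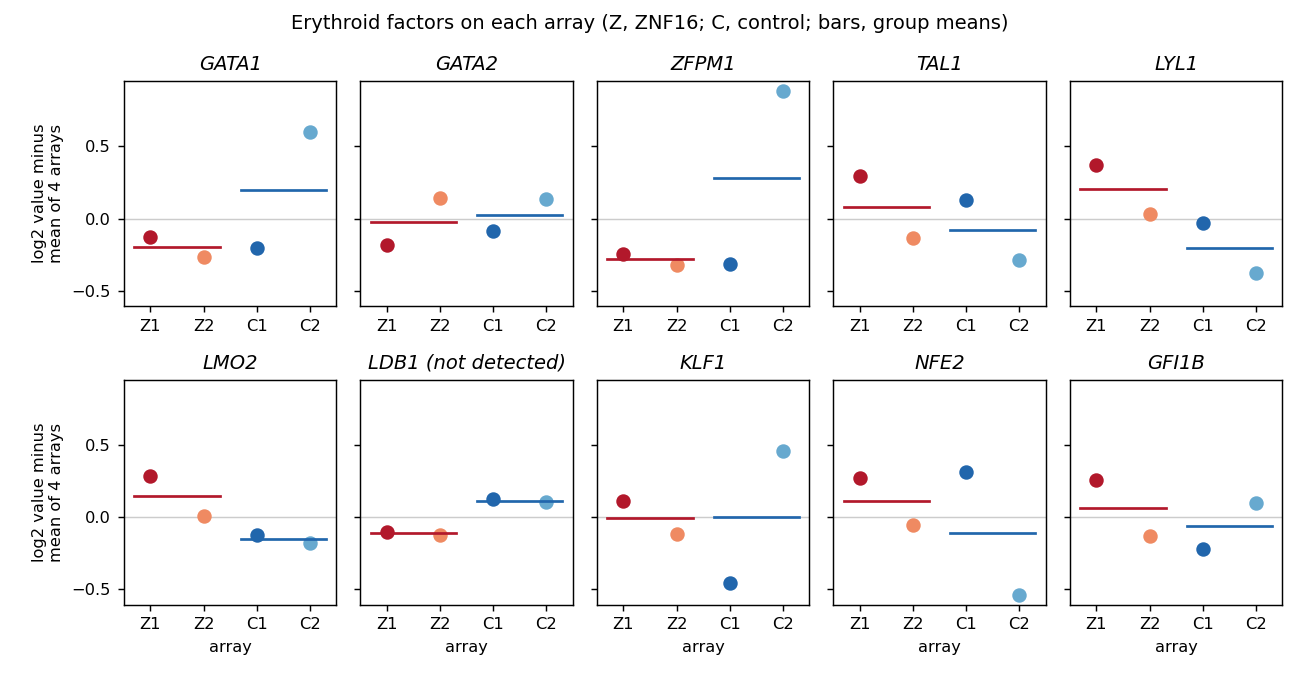
Normalized log2 values of the 10 factors on each array, as the difference from the gene's mean over the 4 arrays, with ZNF16 replicates 1 and 2 (Z1, Z2) left of control replicates 1 and 2 (C1, C2) and bars at the group means. Control replicate 2 was the highest array for GATA1, ZFPM1 and KLF1 and the lowest for TAL1, LYL1, LMO2 and NFE2, and on this scale the groups were separate for LYL1 and LMO2, and for LDB1, which was not detected.

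GATA1, the main GATA factor of red cells, had deposited signals of 1241 and 1202 on the ZNF16 arrays, against 1241 and 1747 on the control arrays. A single control array was thus high, and control replicate 1 lay close to the ZNF16 arrays, between them after normalization. Its log2 difference was −0.39 ± 0.30 (SE from 2 against 2 arrays; limma adjusted p = 0.749), and the 95% interval of −1.12 to 0.33 covers folds between 0.460 and 1.26. With control replicate 2 left out the log2 difference was 0.0092, and it was −0.79 with control replicate 1 left out. GATA2, the progenitor GATA factor, had signals of 1471 and 1825 on the ZNF16 arrays, against 1631 and 1691 on the control arrays. Both control values lay between the ZNF16 values. The log2 difference was −0.05 ± 0.23 (SE; limma adjusted p = 0.966), with an interval of −0.61 to 0.51, and its sign turned without ZNF16 replicate 1 (0.12) and without control replicate 2 (0.07).

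ZFPM1, which encodes the GATA cofactor FOG1, had signals of 883 and 889 on the ZNF16 arrays, against 891 and 1479 on the control arrays. Its values on 3 arrays lay within 0.08 on the normalized log2 scale of each other, and control replicate 2 was 1.13 above the nearest of them. The log2 difference was −0.57 ± 0.39 (SE; limma adjusted p = 0.724), the value furthest from 0 among the 9, and it was 0.031 with control replicate 2 left out and −1.16 with control replicate 1 left out. The control arrays were 2.29-fold apart in this gene. Over all tested entries, 5.93% had control arrays at least 2-fold apart, and 97.1% had control arrays closer together than in ZFPM1. Of the 9 factors, ZFPM1 was the only one with any pair of arrays 2-fold or more apart.

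After quantile normalization, LYL1 and LMO2 were the tested factors whose ZNF16 arrays lay on one side of both control arrays, and both were higher with ZNF16. That is 2 of 9, against 40.0% of all tested entries, with 21.0% separated upward and 19.0% downward. This separation depended on the scale. In the deposited signals 4 of the 9 were separate, LYL1 and LMO2 higher and GATA1 and ZFPM1 lower, against 37.8% of all tested entries. For GATA1 this rested on 1241.3 on ZNF16 replicate 1 against 1241.4 on control replicate 1. Under median scaling 3 were separate, GATA1, GATA2 and ZFPM1, all lower, and LYL1 and LMO2 overlapped, against 44.2% of all tested entries. LYL1, a basic helix-loop-helix factor closely related to TAL1, had signals of 8153 and 6874 on the ZNF16 arrays, against 6576 and 4866 on the control arrays. The lower ZNF16 array was close to the higher control array, with a difference smaller than that between the ZNF16 arrays. LYL1 had a log2 difference of 0.40 ± 0.25 (SE; limma adjusted p = 0.693), with an interval of −0.19 to 0.99. Without control replicate 2 the difference was 0.23. LMO2, the LIM-only bridging protein of the TAL1 complex, had signals of 1729 and 1552 on the ZNF16 arrays, against 1466 and 1347 on the control arrays. The controls were close together on the normalized scale, 0.06 apart on log2, and the ZNF16 arrays were 0.28 apart. LMO2 had a log2 difference of 0.30 ± 0.22 (SE; limma adjusted p = 0.737), with an interval of −0.23 to 0.83. LYL1 and LMO2 kept a positive log2 difference under each alternative run, from 0.23 to 0.59 for LYL1 and from 0.10 to 0.43 for LMO2.

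TAL1, the E-box binding member of the complex, had signals of 677 and 612 on the ZNF16 arrays, against 661 and 608 on the control arrays. In each group replicate 1 was the higher array, and the ranges overlapped. The log2 difference was 0.16 ± 0.27 (SE; limma adjusted p = 0.887), and it was −0.056 without ZNF16 replicate 1, −0.048 without control replicate 2 and −0.18 under median scaling. LDB1, the adaptor that links such complexes on DNA, was not well above background on any array. Its signals were 425.8 and 419.5 on the ZNF16 arrays, against 434.0 and 455.1 on the control arrays, and the inferred negative controls averaged between 369.8 and 393.1. Detection p-values were 0.299 and 0.310 on the ZNF16 arrays, against 0.126 and 0.161 on the control arrays. No fold is given, since both groups are below the threshold, and LDB1 was left out of the tests.

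KLF1, an activator of adult beta globin and many other red cell genes, had signals of 902 and 856 on the ZNF16 arrays, against 751 and 1074 on the control arrays. The ZNF16 arrays lay between the controls, which were 1.89-fold apart after normalization. The log2 difference was −0.0055 ± 0.33 (SE; limma adjusted p = 0.997). With control replicate 2 left out it was 0.47 and with control replicate 1 left out −0.46, so that its sign differed with the control array used. NFE2, the large subunit of a heterodimer with small MAF proteins, had signals of 15927 and 14062 on the ZNF16 arrays, against 18445 and 9260 on the control arrays. Again both ZNF16 values lay between the controls, here with control replicate 2 as the low array. NFE2 had a log2 difference of 0.22 ± 0.32 (SE; limma adjusted p = 0.873), and it was −0.20 with control replicate 2 left out and 0.66 with control replicate 1 left out. GFI1B, the zinc finger repressor, had signals of 861 and 766 on the ZNF16 arrays, against 743 and 844 on the control arrays. The ranges overlapped, and the log2 difference was 0.12 ± 0.25 (SE; limma adjusted p = 0.908). It was −0.072 without ZNF16 replicate 1, −0.042 without control replicate 1, 0.29 without control replicate 2 and −0.15 under median scaling.

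In 7 of the 9 tested factors the control arrays were further apart than the group means, against 63.1% of all tested entries. The exceptions were LYL1 and LMO2. Control replicate 2 was the highest or lowest array in 7 of the 9, highest in 3 and lowest in 4, against 67.5% of all tested entries. The median absolute difference between the control arrays was 0.42 in the 9 factors and 0.32 over all tested entries, and that between the ZNF16 arrays was 0.32 in the factors and 0.19 over all. The control differences of GATA1, KLF1 and NFE2, 0.80, 0.92 and −0.85 on log2 (replicate 2 minus replicate 1), were larger in size than those of 88.3%, 92.3% and 90.3% of tested entries. TAL1, LYL1 and GFI1B had −0.42, −0.35 and 0.33, and GATA2 had 0.22. With the negative controls inferred from every entry, the log2 differences of GATA1, ZFPM1, TAL1, LMO2 and GFI1B were −0.20, −0.19, 0.015, 0.16 and 0.020. In relation to control replicate 1 alone, the ZNF16 mean of GATA1 differed by 0.0077 and that of ZFPM1 by 0.031.

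**Figure D2:**
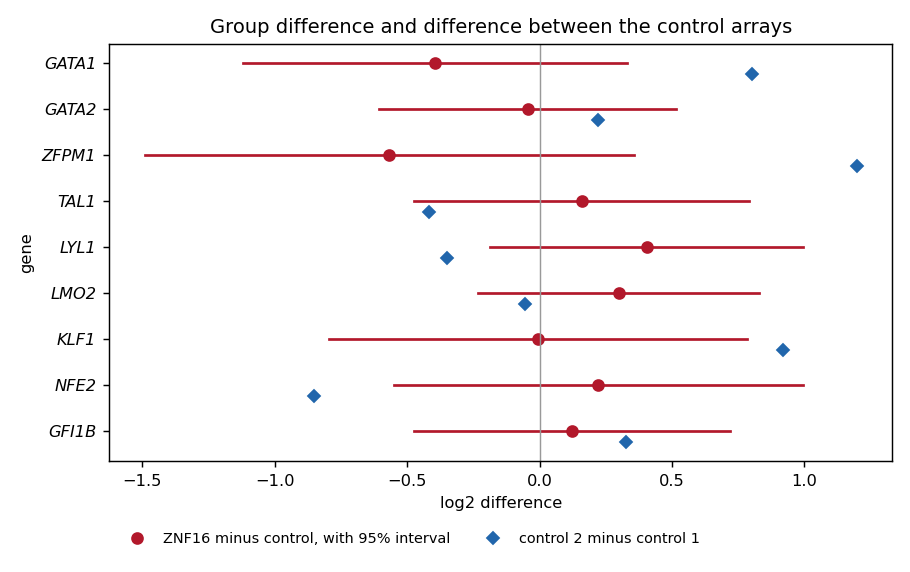
Log2 difference between ZNF16 and control arrays for the 9 tested factors (circles, with 95% intervals from limma as lines) and, under each, the log2 difference of control replicate 2 minus control replicate 1 (diamonds). Every interval crosses 0, and the diamond lies further from 0 than the circle for all genes but LYL1 and LMO2.

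**Figure D3:**
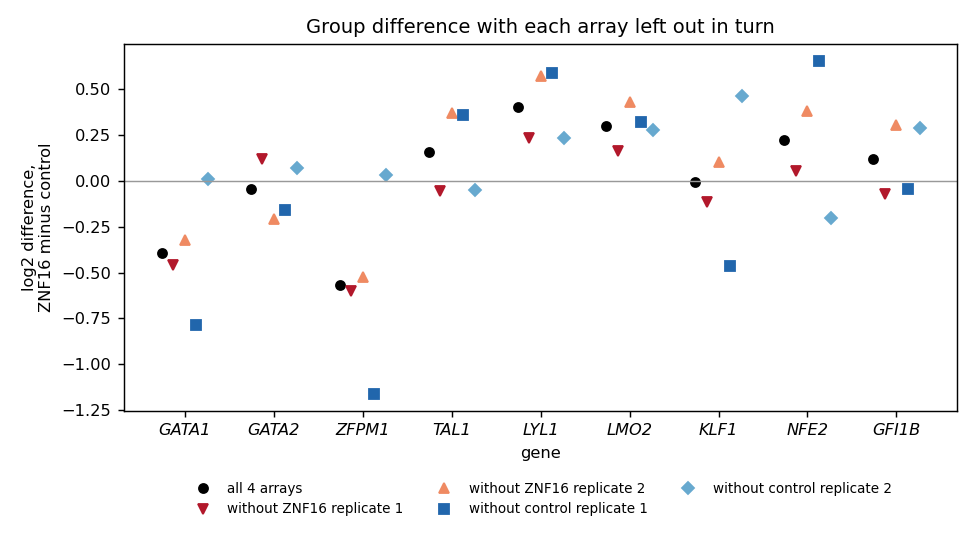
Log2 difference between ZNF16 and control arrays for the 9 tested factors with all 4 arrays (black) and with each array left out in turn. For ZFPM1 the values run from −1.16 without control replicate 1 to 0.031 without control replicate 2, and LYL1 and LMO2 stay above 0 in all 5.

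Pairs of factors were also set against each other within each array, on the normalized log2 scale and relative to the control mean. GATA1 minus GATA2, which addresses the exchange of GATA2 for GATA1 known from red cell maturation, was −0.11 and −0.58 on the ZNF16 arrays, against −0.29 and 0.29 on the control arrays. The groups overlapped. KLF1 minus NFE2 was −0.28 and −0.18 on the ZNF16 arrays, against −0.88 and 0.88 on the control arrays, so that the controls lay on opposite sides of the ZNF16 arrays. LYL1 minus TAL1 was 0.20 and 0.29 on the ZNF16 arrays, against −0.034 and 0.034 on the control arrays. Among the pairs shown, the groups were separate only in this contrast, and LYL1 itself had separate groups on this scale. Single entries had separate groups in 40.0% of all tested entries, and no share over other pairs of genes was worked out. LMO2 minus TAL1 was 0.06 and 0.22 on the ZNF16 arrays, against −0.18 and 0.18 on the control arrays, and ZFPM1 minus GATA1 was −0.20 and −0.15 on the ZNF16 arrays, against −0.20 and 0.20 on the control arrays. With 2 arrays in each group an exact permutation test cannot give a two-sided p below 0.333, and no other test was run on these contrasts.

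ZFPM1 had the widest range over the 4 arrays. The tested entries nearest to it in pattern (Euclidean distance of log2 values over 4 arrays, each centred on its own mean) were SPR at 0.054, OBFC2B at 0.093 and FAM160A2 at 0.12. SPR, which encodes sepiapterin reductase, had signals of 797 and 815 on the ZNF16 arrays, against 814 and 1355 on the control arrays. It shares with ZFPM1 a single high array, control replicate 2.

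Genes that the literature ties to these factors were counted in 7 lists, without the 10 factors themselves, and no gene of any list passed limma's test after adjustment in either direction. The lists were written with earlier results of these data known, so their shares and medians are descriptions and not independent support. An unadjusted p under 0.05, which 7.69% of all tested entries had, was found in 6 of 15 other transcription factors, 5 of 23 genes activated by GATA1 or TAL1, 2 of 13 activated by KLF1, 2 of 8 repressed by GATA1 or GFI1B and 0 of the genes on the 3 partner lists. Among partners of the TAL1 complex 8 of 13 were tested, with 2 above 0, 6 below 0 and a median log2 difference of −0.27. Without control replicate 2 that median was −0.0004. TCF12, the E protein HEB that pairs with TAL1, had a log2 difference of 0.45 and SSBP2, a partner of LDB1, 0.13, while the E protein gene TCF4 had −0.49 and SSBP3, a relative of SSBP2, had −0.43 (limma adjusted p = 0.662 to 0.892 for these 4). The groups were separate in 4 of the 8, or 50%, against 40.0% of all tested entries, TCF12 and TCF4 among them. SSBP3 had 0.019 without control replicate 2. With the negative controls inferred from every entry, TCF12, SSBP2, TCF4 and SSBP3 had 0.052, 0.055, −0.031 and −0.046. Relatives and partners of NFE2 had 4 of 8 tested, 0 of them with separate groups, and a median of 0.07, which was −0.051 without control replicate 1. The small MAF gene MAFG had 0.11, NFE2L3 0.18 (−0.019 without control replicate 2), the antioxidant factor NFE2L2 0.03 and NFE2L1 −0.46, the last with 1 high array, control replicate 2, and −0.054 without it. With the negative controls inferred from every entry, MAFG, NFE2L3, NFE2L2 and NFE2L1 had 0.012, 0.013, 0.012 and −0.089.

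Subunits of the corepressors that GFI1B and FOG1 recruit had 14 of 19 genes tested, with 9 above 0, 5 below 0 and a median of 0.04, which was −0.015 without ZNF16 replicate 1. GATAD2A, a subunit of the NuRD complex, had a log2 difference of 0.46 and the histone deacetylase HDAC1 0.45, while the NuRD subunit GATAD2B had −0.42 and HMG20B, of the LSD1 and CoREST complex, −0.33. The groups were separate in 4 of the 14, or 28.6%, against 40.0% of all tested entries. HDAC1 and GATAD2A were among these, and both were smaller without control replicate 2 (0.19 and 0.21). GATAD2B turned to 0.13 without control replicate 2. HMG20B turned to 0.16 without control replicate 1 and had −0.81 without control replicate 2. With all 4 arrays, limma adjusted p-values of GATAD2A, HDAC1, GATAD2B and HMG20B lay between 0.675 and 0.820. With the negative controls inferred from every entry, these genes had 0.80, 0.54, −0.033 and −0.43.

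Other transcription factors, of blood cells or similar to the factors in name or family, had 15 of 28 tested, with 7 above 0 and 8 below 0. Their median was −0.16, and 0.035 without control replicate 2. The groups were separate in 10 of the 15, or 66.7%, against 40.0% of all tested entries. ZFPM2, which encodes FOG2, the relative of FOG1, had signals of 646 and 681 on the ZNF16 arrays, against 482 and 515 on the control arrays. Both ZNF16 arrays were above both controls, with a log2 difference of 1.15 ± 0.21 (SE; limma adjusted p = 0.257). IKZF1, the Ikaros factor of lymphoid development, had 0.85 ± 0.22 (SE; limma adjusted p = 0.430). KLF13, of the KLF family, had −0.99 and GATAD1, a protein with a GATA-type zinc finger, −1.32 ± 0.27 (SE; limma adjusted p = 0.350), each with both ZNF16 arrays below both controls. Their sizes moved with the treatment of background. Uncorrected, ZFPM2, IKZF1, KLF13 and GATAD1 had log2 differences of 0.43, 0.50, −0.40 and −0.50. They had 0.087, 0.18, −0.088 and −0.10 when the negative controls were inferred from every entry. Without ZNF16 replicate 1, KLF13 had −0.39.

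Among genes known to be activated by GATA1 or TAL1 23 of 30 were tested, with a median of 0.19. Of these 23, 14 were above 0, 8 were below 0 and 1, HBG1, had no difference after quantile normalization. The groups were separate in 13 of them, 10 upward and 3 downward, which is 56.5% against 40.0% of all tested entries. With an array left out the median lay between 0.16 and 0.18. HBE1, HBG1 and HBG2, whose signals were close to the upper end of the scanner's range, are included in these counts and medians. The deposited signals of HBG1 were 61558 and 64782 on the ZNF16 arrays, against 67137 and 66411 on the control arrays. HBD, the delta globin gene, had signals of 4716 and 4604 on the ZNF16 arrays, against 2621 and 2277 on the control arrays. The pairs were far apart, with a log2 difference of 1.04 ± 0.21 (SE; limma adjusted p = 0.347). UROS, a haem synthesis enzyme, had 0.99, and 0.35 without control replicate 2. AHSP, the chaperone of alpha globin, had signals of 1001 and 1230 on the ZNF16 arrays, against 1715 and 1708 on the control arrays. Both ZNF16 arrays were below both controls, with a log2 difference of −0.87 ± 0.23 (SE; limma adjusted p = 0.455), the lowest of the tested genes on the list. With the negative controls inferred from every entry, HBD and AHSP had 1.65 and −0.38. The erythropoietin receptor gene EPOR had −0.62, which was −0.10 without control replicate 2 and −0.046 with the negative controls inferred from every entry.

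Genes known to be activated by KLF1, some of them also on the list for GATA1 or TAL1, had 13 of 25 tested, with 8 above 0, 5 below 0 and a median of 0.12. The groups were separate in 8 of these 13, or 61.5%, against 40.0% of all tested entries. E2F2, a cell cycle factor of maturing red cells, had 0.71 ± 0.27 (SE; limma adjusted p = 0.624), with separate groups, and the blood group gene ICAM4 had −0.38. Without control replicate 2 they had 0.42 and −0.042. Genes known to be repressed by GATA1 or GFI1B, most of them progenitor or myeloid genes, had 8 of 15 tested, with 2 above 0, 6 below 0 and a median of −0.42. The groups were separate in 6 of the 8, which is 75% against 40.0% of all tested entries, and 5 of these were lower with ZNF16. With an array left out the median lay between −0.39 and −0.21, and it was −0.21 without control replicate 2. Relative to the median of all tested entries, the lists for genes repressed and for genes activated by GATA1 had −0.43 and 0.18 under quantile normalization. Under median scaling they had −0.40 and 0.18. These list medians are not given here for the other treatments of background, which changed the size of single genes. On the list of repressed genes, ETV6 and SOCS1 were each detected on 3 of 4 arrays. The lists are not independent of these data, and GATA1 activity was not tested. VIM, the intermediate filament vimentin, had signals of 3100 and 3624 on the ZNF16 arrays, against 6258 and 7001 on the control arrays. Both ZNF16 arrays were well below both controls, and the log2 difference was −1.10 ± 0.23 (SE; limma adjusted p = 0.350). SOCS1, an inhibitor of cytokine signalling, had −0.98, and −0.30 without control replicate 2. The progenitor factors ETV6 and MYB had 0.36 and 0.27, and without control replicate 2 they had 0.23 and 0.029. With the negative controls inferred from every entry, VIM and MYB had −1.80 and 0.46, and SOCS1 and ETV6 had −0.095 and 0.021.

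**Figure D4:**
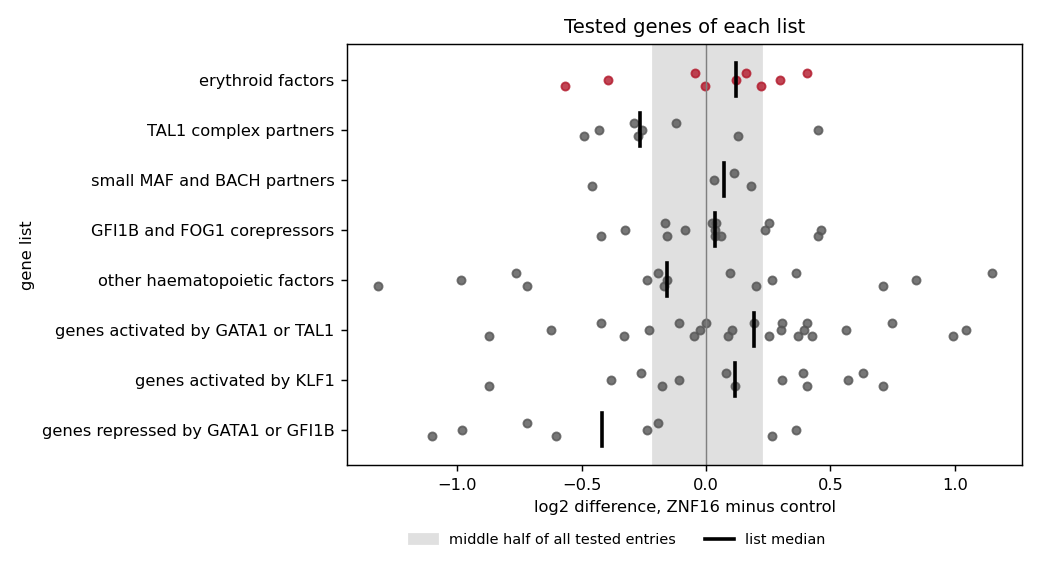
Log2 differences, ZNF16 minus control, of the tested genes in each list (points, spread vertically for legibility) with the list median as a black bar and the middle range of all tested entries (first to last quartile bounds) in grey. The 9 tested erythroid factors run from −0.57 for ZFPM1 to 0.40 for LYL1, and the list of genes repressed by GATA1 or GFI1B has the lowest median, −0.42.

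Of 9 marker genes of K562 cells, 7 were tested. HBZ, the embryonic zeta globin gene, had 0.75 and the transferrin receptor gene TFRC 0.56, with 0.51 and 0.37 without control replicate 2. The epsilon and gamma globin genes HBE1, HBG1 and HBG2 had signals between 60392 and 68827 on all arrays, close to the upper end of the scanner's range. No difference is read from them one by one, since the files used here do not record saturation, but they are counted among the genes activated by GATA1 or TAL1. HEMGN and ALAS2 combine several probes and did not pass the filter, although their signals were between 1028 and 1764 for HEMGN and between 2186 and 3941 for ALAS2. HEMGN had 1764 and 1759 on the ZNF16 arrays, against 1292 and 1028 on the control arrays. ALAS2 had 2513 and 2186 on the ZNF16 arrays, against 3941 and 2433 on the control arrays. Neither was detected on any array, and neither was tested. Of 14 markers of other cell types, 7 were detected on no array, among them PTPRC, CD3E, CD14, MPO and ELANE. Their summed signal over the 14 was 9842 and 9829 on the ZNF16 arrays, against 9152 and 10124 on the control arrays. The tested ones included the epithelial genes EPCAM, KRT8 and KRT18, at 0.52, −0.45 and 0.07, of which KRT8 had 0.033 without control replicate 2, and COL1A2, at −0.45, none past the test, and their part in the results was not tested.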

How the data were processed

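Total RNA of K562 cells was hybridised to 4 Illumina HumanHT-12 arrays. The deposited signals are linear intensity values made with GenomeStudio 2010.2, per the submitters' processing notes, with a deposited detection p-value beside each, per the file headers. A second deposited table holds the authors' processed intensity values, which followed straight lines of the signals (slopes from 0.948 to 1.05). The genome build, the annotation and the rule for combining probes were not given in the sources used here. Probe sequences were not used here. No column was left unmapped.

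Signals were corrected with normexp in limma 3.58.1 (R 4.3.3). Negative-control means and SDs were inferred from detection p-values of the 27095 entries lying on steps of 1 in 770 on all arrays, which were read as single probes. An offset of 16, quantile normalization and log2 followed. Entries with a detection p under 0.05 on at least 2 arrays were tested with lmFit and eBayes, and two-sided p-values adjusted by Benjamini-Hochberg were called under 0.05. The fit was tested on simulated data in 2 versions. The first failed its criterion, with none of the known differences called. The simulated sizes were then enlarged and the criterion was changed after that outcome, and the second version met it, so it is no independent check. In it the sizes of the known differences were recovered, but few were called except very large ones, which bears on every count of 0 given here. The simulated arrays all had the same independent log2 noise, with none set apart like control replicate 2. Known differences were placed only in entries well above background. The simulation therefore does not measure how many differences of a given size would be called in these data. The analysis code was the same in both. The number of arrays limits the precision. The members and lists were chosen with earlier results of these data known. All 10 members are named, and from each other list the 2 highest and the 2 lowest log2 differences, or all where 4 or fewer were tested, except that 1 gene is not reported here. Lists were described by counts and medians, with no test. Alternatives varied the background, offset, scaling, filter, variance model, replicate block and arrays used, and the authors' values replaced the signals.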

Additional observations from a re-analysis of the deposited data

How the results depend on the processing

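The count of entries past the threshold was 0 and stayed 0 with no background correction, with negative-control statistics from all entries, in the authors' processed values, with no filter and with the stricter filter. It was 3 with an offset of 50, 3 with a trended and robust variance model, 7 under median scaling and 120 with the replicate block, and 0 to 2 with an array left out. None of the 9 tested erythroid factors was past it in any of these, nor was LDB1 in the fit with no filter, the only one it entered. The groups share replicate numbers, but no label says that same-numbered arrays were paired. The correlation of same-numbered deviations was 0.193, and there are too few pairs to decide whether the arrays were paired. With the replicate block ZFPM2, GATAD1 and VIM had adjusted p-values of 0.0387, 0.0249 and 0.0476, and no other factor or list gene refitted here passed. The median of the 9 tested factors was −0.18 under median scaling and ran from −0.056 to 0.31 with an array left out. Median scaling turned the sign of TAL1 (−0.18), GFI1B (−0.15), SSBP2 (−0.070), NFE2L3 (−0.12), MAFG (−0.20), NFE2L2 (−0.16) and KRT18 (−0.18), and the authors' processed values that of GATA2 (0.0090). With an array left out, log2 differences that turned sign ran from −0.79 to 0.0092 for GATA1, −0.21 to 0.12 for GATA2, −1.16 to 0.031 for ZFPM1, −0.056 to 0.37 for TAL1, −0.46 to 0.47 for KLF1, −0.20 to 0.66 for NFE2, −0.072 to 0.31 for GFI1B, −0.88 to 0.019 for SSBP3, −0.019 to 0.37 for NFE2L3, −0.12 to 0.18 for NFE2L2, −0.96 to 0.13 for GATAD2B, −0.81 to 0.16 for HMG20B and −0.93 to 0.033 for KRT8. Without control replicate 1, 3 of the 9 factors had an unadjusted p under 0.05, as had 25.2% of all tested entries, with control replicate 2 as the lone control, assumed to vary like the ZNF16 arrays. Signal over background limits LDB1 and the dim entries. The cause of these changes was not tested.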
